A study of Lactuca sativa with 53 samples.

Results

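Of the 23292 genes listed for the lettuce (Lactuca sativa) cultivar Salinas, 6 were raised at 5 h of both salt and heat and were under the same limit at every later time. The 6 genes were selected on their measured values in the Salinas libraries. For each gene, the difference of a group was its mean log2(value + 0.5) minus that of the control plants, so that 1 is a doubling of the value plus 0.5. For a gene with low values, that is more than a doubling of the value itself. A gene was taken when this difference was 1 or more at 5 h of salt and at 5 h of heat, and under 1 in all 6 groups sampled at 24 h or 48 h of salt, heat and drought. Genes of the AP2/ERF transcription factor family were to be left out, but none of them met these limits. Up to 150 genes were to be kept, ranked by the smaller of the 5 h differences, and only 6 qualified. Drought at 5 h took no part in the choice.

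By the methods, plants were grown in soil at 20 °C and were 18 days old when a treatment began, so those of later times were older at harvest. The Salinas groups held 3 libraries each. They were a control at 0 h and, at 5 h, 24 h and 48 h, plants given NaCl at 250 mM (salt), plants moved to 34 °C (heat) and plants whose pots were drained and no longer watered (drought). A separate table held the cultivars PI284702 and UC96US23 as warm-grown plants at 0 h and after 4 h, 24 h or 7 d at 4 °C, with 3 libraries a group apart from PI284702 at 0 h, which had 2. The tissue is leaf in the methods and aerial tissue in the labels. Unstressed plants were sampled at 0 h only, and the treatments ran at a lower light intensity than the growth before them, lowest in the cold. Stress, light and time of day therefore cannot be told apart in a comparison of 5 h with 0 h. Nor can cold, light and plant age in a comparison of cold with 0 h plants, and at 4 h time of day as well. By their labels, 24 h, 48 h and 7 d are whole days after 0 h and share its time of day, while 5 h does not.

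Salt exposes a plant first to osmotic stress and later to the build-up of sodium ions in its leaves. Heat disturbs protein folding and membranes, and drought lowers the water status more slowly, as the soil dries. Many plant genes respond to a stress with an early rise that fades, and many others follow the time of day, so that a gene high at a single early harvest may belong to either kind. In bulk tissue, more cells of a type and more RNA per cell cannot be told apart.

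The 6 genes are named after the short form used in the study, in which the first digit is the linkage group. In order of rank they were Ls6g17980.1, Ls4g139721.1, Ls8g78661.1, Ls5g86540.2, Ls6g7601.1 and Ls7g27121.1. Their full identifiers in the files have the form Lsat_1_v5_gn_6_17980.1. They lay on linkage groups 4, 5, 6, 7 and 8, with 2 of them on linkage group 6. The files give no gene names, and 0 of the 23292 identifiers were found in the RefSeq gene table used here, so no function, sequence or position is given for any of the 6 genes, and the leaf label was not checked against marker genes.

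Reads counted on genes ranged from 19144717 to 29521313 per Salinas library and from 17570370 to 27896716 per library of the other cultivars. Replicates correlated at r of 0.967 to 0.994 across genes in Salinas and of 0.980 to 0.994 in the cold table, on the log2 scale. The lowest correlation was between replicates 1 and 2 of salt at 24 h. Salinas values are counts per 1000000 reads of a scaled library size (scaled CPM), and cold values are plain CPM, so levels were not compared between the tables, nor between genes.

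At 5 h of salt, 1143 of 23292 genes (4.91%) had a difference of 1 or more, and at 5 h of heat 879 did (3.77%). Both limits were met by 80 genes, 2 of them AP2/ERF genes. Of these 80, 74 also had a difference of 1 or more in a 24 h or 48 h group, and 50 of them did so in 4 groups or more. Under salt, 66 of the 80 were past the limit at 24 h, where 15.3% of all genes were, and 59 at 48 h, where 21.1% of all genes were. Under heat, 52 were at 24 h (5.02% of all genes) and 57 at 48 h (6.0%). Under drought, 6 were at 24 h (0.335%) and 45 at 48 h (2.16%). All these differences share the 3 control libraries, and a low value there raises the early and the late ones together. The counts of the 80 genes therefore carry no test against the shares of all genes. Genes high at 5 h of both stresses and under the limit later were 6 of the 80, as the map of early against late differences shows.

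**Figure D1:**
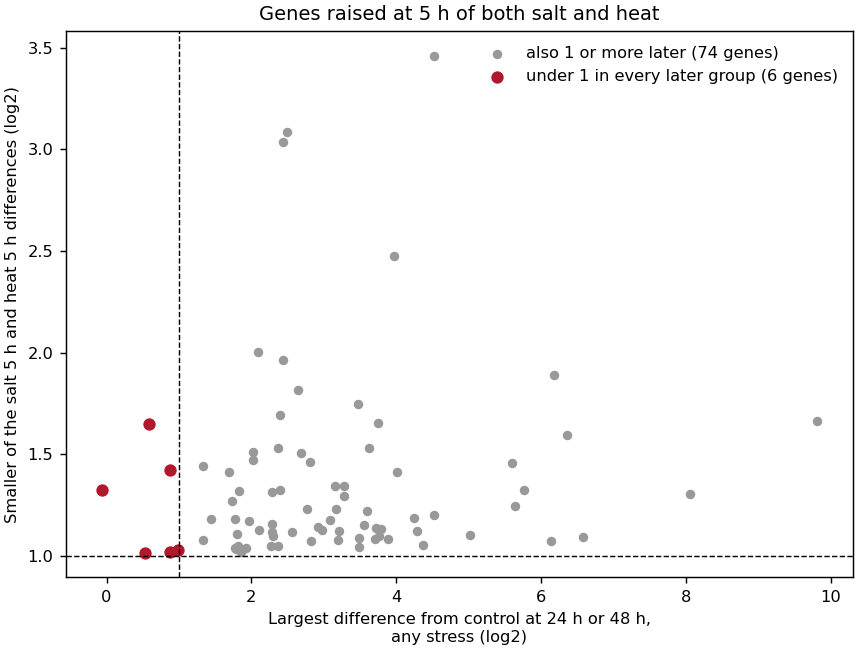
Each point is 1 of the 80 genes with a difference of at least 1 at 5 h of both salt and heat, with its largest log2 difference from the control in any 24 h or 48 h group (horizontal) and the smaller of its salt 5 h and heat 5 h log2 differences (vertical), and dashed lines at 1. The 6 chosen genes (red) lie left of the vertical line, 3 of them just above the horizontal line, and the other 74 (grey) lie to its right.

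The 6 genes met the limits by different margins. Ls6g17980.1 had the largest smaller difference (1.65), followed by Ls4g139721.1 (1.42) and Ls8g78661.1 (1.32). The other 3 were at the limit, with 1.03 for Ls5g86540.2, 1.02 for Ls6g7601.1 and 1.02 for Ls7g27121.1. Just outside, Ls6g64441.1 missed by its salt value of 0.98 at 5 h, and Ls5g3561.1 by its heat value of 1.33 at 48 h. Only Ls6g17980.1 and Ls8g78661.1 met the limits in all 27 rounds that each left out a Salinas library and under all 5 other settings tried. Ls4g139721.1, although second in rank, met them under only 2 of the 5 settings and was lost with a pseudocount of 0.1, with a pseudocount of 2 and with edgeR fold changes. It met them in 26 of the 27 rounds. Ls5g86540.2 met them in 21 rounds and under 2 settings, Ls6g7601.1 in 24 rounds and under 3, and Ls7g27121.1 in 23 rounds and under 3. With a pseudocount of 2 Ls6g17980.1 and Ls8g78661.1 were the only 2 genes left, and without replicate 1 of salt at 5 h 3 genes were left.

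Ls6g17980.1 had 19.2, 15.6 and 15.2 scaled CPM in the control libraries. It had 54.95, 51.0 and 53.5 at 5 h of salt. At 5 h of heat it had 63.2, 105 and 51.0, with replicate 2 well above the others. These were differences of 1.65 and 2.04, and all 6 stressed libraries lay above all 3 controls. At 24 h of salt it was still above the controls in all 3 libraries, at 27.9, 22.4 and 25.7 scaled CPM. Its libraries overlapped the control at 48 h of salt, at 24 h and 48 h of heat and at each time of drought, with differences between -0.31 and 0.30.

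Ls8g78661.1 had 17.0, 17.8 and 13.6 scaled CPM in the control. Values of 66.7, 53.5 and 52.8 were measured at 5 h of salt and of 35.3, 52.7 and 36.5 at 5 h of heat. These were differences of 1.81 and 1.32, and the lowest salt library (52.8) was level with the highest heat library (52.7). By 48 h of salt the gene was below every control library, at 4.96, 3.90 and 4.52 scaled CPM, a difference of -1.74. No other of the 6 genes had a late difference of -1 or below. In the other 5 late groups its libraries overlapped the control, with differences between -0.30 and -0.06.

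Ls4g139721.1 was weakly expressed, with 10, 18 and 12 reads in the control libraries, which were 0.448, 0.649 and 0.506 scaled CPM. It had 2.88, 2.65 and 3.08 at 5 h of salt and 3.63, 2.09 and 1.46 at 5 h of heat, the latter spread more widely than the former. The differences were 1.71 and 1.42. In all 6 late groups every library stayed above every control, with differences from 0.32 at 24 h of drought to 0.88 at 48 h of salt. With so few reads in the 3 shared control libraries, a low value there raises every one of these differences. Replicate 2 of salt at 48 h (2.54) was within the range of the 5 h heat libraries.

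Ls5g86540.2 had 19.8, 17.8 and 17.2 scaled CPM in the control. It had 43.6, 39.8 and 30.8 at 5 h of salt and 40.5, 35.7 and 38.1 at 5 h of heat, differences of 1.03 and 1.04. It was far from confined to 5 h. All 3 libraries lay above the control at 24 h of salt (0.77), at 48 h of salt (0.34), at 24 h of heat (0.35), at 24 h of drought (0.75) and at 48 h of drought (0.98). The last of these was the late value closest to the limit among the 6 genes, and at 48 h of drought the libraries, at 32.4, 38.1 and 39.3, overlapped those of 5 h of salt and of heat. At 48 h of heat the gene was below all controls, at 15.7, 13.9 and 13.6.

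Ls6g7601.1 had 17.1, 15.8 and 16.9 scaled CPM in the control. The libraries of 5 h of salt had 37.2, 29.7 and 35.8 and those of 5 h of heat 44.4, 35.1 and 42.8, differences of 1.02 and 1.27. The stresses then parted. Under salt the gene was below all controls at 24 h (6.93, 11.9 and 8.17) and at 48 h (8.38, 10.6 and 6.97), differences of -0.88 and -0.92. Under heat it was near the control, with 0.03 at 24 h and -0.04 at 48 h, with overlapping libraries. Under drought it was above all controls at 24 h (0.26) and at 48 h, at 28.5, 34.3 and 30.2 (0.88).

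Ls7g27121.1 had 16.0, 10.4 and 12.5 scaled CPM in the control. It had 29.1, 22.8 and 27.4 at 5 h of salt and 26.6, 25.2 and 38.8 at 5 h of heat, differences of 1.02 and 1.18. Every library of both groups lay above every control. All of its 6 late groups overlapped the control, with differences from -0.40 at 48 h of heat to 0.54 at 24 h of salt. Its widest late spread was at 48 h of drought, where replicate 3 had 28.8 and the others 11.7 and 16.2.

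**Figure D2:**
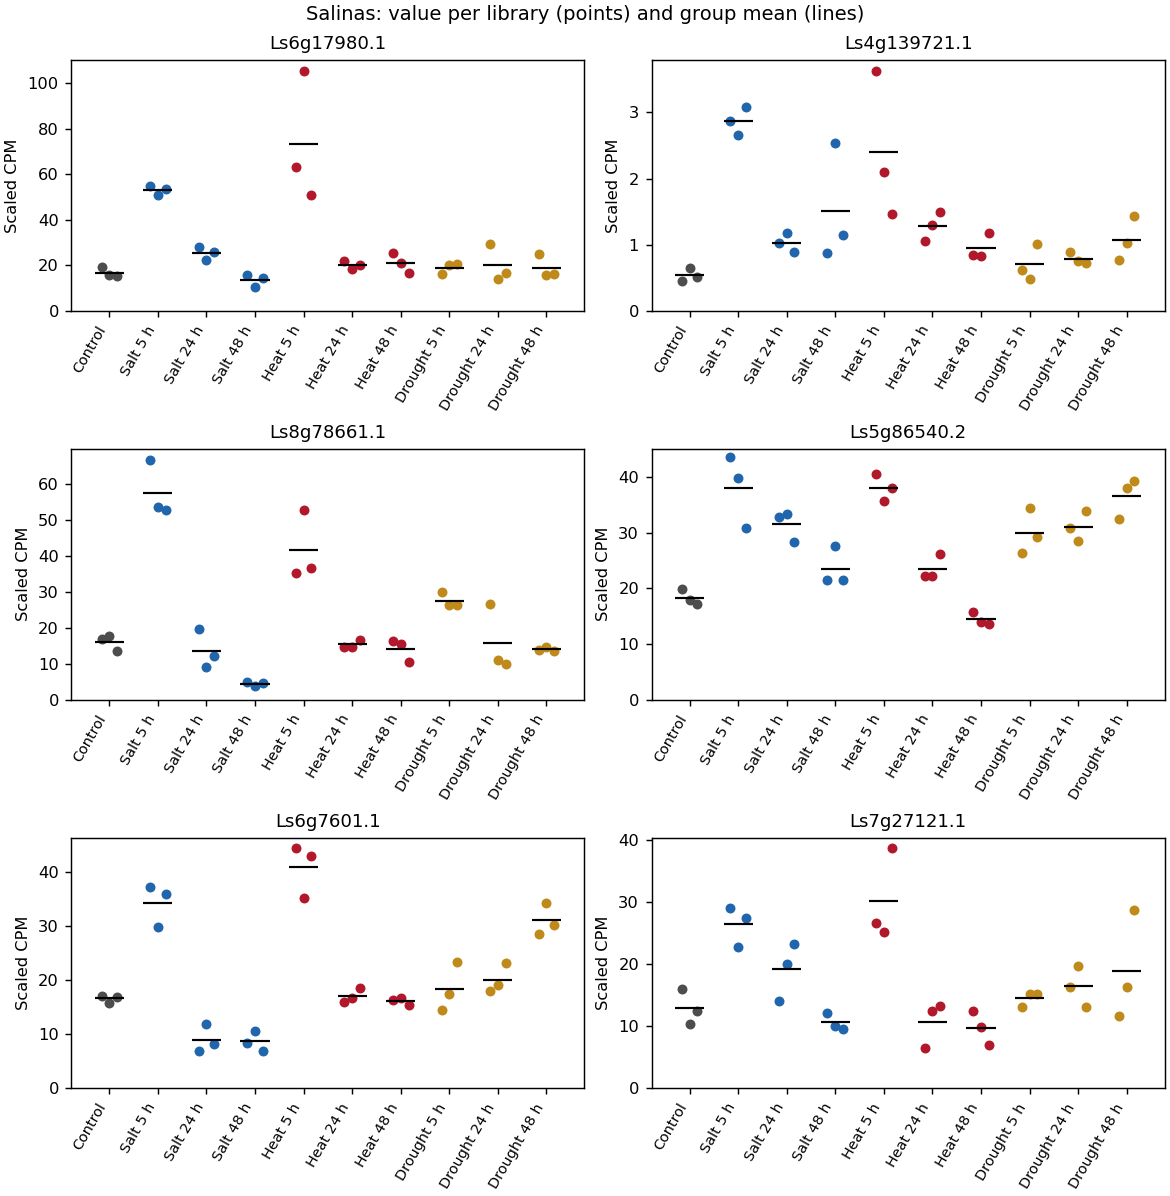
Scaled CPM of the 6 genes in the 30 Salinas libraries, with 1 panel per gene, points for the 3 libraries of a group and a line at the group mean, and a vertical axis that starts at 0 and differs between panels. The highest mean of each gene is at 5 h of heat or of salt, while Ls5g86540.2 is nearly as high at 48 h of drought and Ls8g78661.1 is lowest at 48 h of salt.

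The mean levels put 5 h of heat first and 5 h of salt second in Ls6g17980.1, Ls5g86540.2, Ls6g7601.1 and Ls7g27121.1, and the other way round in Ls4g139721.1 and Ls8g78661.1. These top groups overlapped in every gene but Ls8g78661.1. For Ls6g17980.1, both stood clear of the next group, 24 h of salt (25.3 ± 2.77 scaled CPM, SD, n = 3). For Ls8g78661.1, the order of 5 h salt, 5 h heat, 5 h drought and control had no overlap between neighbours, though salt and heat were only just apart, with means of 57.7 ± 7.84, 41.5 ± 9.72, 27.5 ± 2.20 and 16.1 ± 2.22 scaled CPM (SD, n = 3 each). In the other 4 genes, the group next in order overlapped the second.

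Drought at 5 h shares its harvest time after the start of treatment with the salt and heat groups, and limma was run on log2(scaled CPM + 0.5) to set it against the control plants, with p-values adjusted over the 23231 genes tested. Genes were called where the adjusted p was at most 0.01 and the difference was at least 1 in size. The comparison uses the same 3 control libraries as the choice of the genes, and a low value in them raises all 3 differences at 5 h. All 6 genes passed the filter on low values.

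None of the 6 genes was called at 5 h of drought by limma, where 0.542% of all genes were called higher and 0.237% lower. By edgeR also 0 were called. At an unadjusted limma p under 0.05, 2 of the 6 were higher and 0 lower, where 11.0% of all genes were higher and 7.89% lower. All 6 differences were above 0, from 0.12 to 0.76, with a median of 0.19, beside a median of 0.01 over all genes. Ls5g86540.2 had 26.3, 34.4 and 29.2 scaled CPM, above every control, a difference of 0.69 (standard error 0.12, adjusted p = 0.00101 by limma) that was under the fold limit. Ls8g78661.1 had 30.05, 26.2 and 26.3, also above every control, a difference of 0.76 (standard error 0.26, adjusted p = 0.0899 by limma). In a fit on only the libraries compared, its adjusted p was 0.000373 by limma, so this p-value depends on which libraries set the spread. The difference was under the fold limit in both fits. The remaining 4 genes overlapped the control at 5 h of drought, with differences of 0.12 to 0.20 and adjusted p from 0.754 to 0.81 by limma. The share of all genes without such overlap was not counted, and nothing is read from these overlaps.

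Set side by side at 5 h, all 3 heat libraries lay above all 3 drought libraries in 6 of 6 genes, and all 3 salt libraries did in 5 of 6, the exception being Ls5g86540.2. Of all genes, 27.8% had heat libraries that lay so and 25.5% had such salt libraries. The salt groups exceeded drought by 0.34 to 1.51 on the log2 scale (median 0.97) and the heat groups by 0.35 to 1.86 (median 1.08). Since salt and heat at 5 h chose the genes, these counts and values carry no test, and nothing is read from them. The smallest gaps were those of Ls5g86540.2, at 0.34 for salt and 0.35 for heat.

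Drought at 5 h was also set against drought at 24 h, which keeps to a single type of stress and leaves the controls out. The length of drought, the time of day and plant age still differ between these groups. The choice of the genes had also limited the 24 h group. By limma 0 of the 6 genes were called, where 0.293% of all genes were called higher and 0.112% lower, and by edgeR 0 were called. At an unadjusted limma p under 0.05, 1 gene was higher and 0 were lower, where 12.6% of all genes were higher and 9.98% lower. That gene was Ls8g78661.1, at 0.92 (standard error 0.26, adjusted p = 0.0283 by limma). In the 24 h group its replicate 1 (26.7 scaled CPM) lay far above the others (11.0 and 9.80), and without that library the difference was 1.36 and was called (adjusted p = 0.000267 by limma). The differences of the other 5 genes were between -0.16 and -0.01.

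The cold libraries come from other cultivars and another stress and, by the methods, from a separate data set. They took no part in the choice of the genes. All 6 genes were listed in that table, and all passed the filter. Each cold group was compared with the 0 h plants of its cultivar by limma on log2(CPM + 0.5), with p-values adjusted over 23443 genes and the thresholds given above.

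At 4 h of cold, 0 of the 6 genes were called in either cultivar, by limma or by edgeR. Among all genes, 3.41% were called higher and 0.704% lower in PI284702, and 4.3% higher and 2.33% lower in UC96US23. The median difference of the 6 genes was 0.29 in PI284702 and 0.58 in UC96US23, beside -0.01 and -0.03 over all genes tested. Higher genes at an unadjusted limma p under 0.05 numbered 2 in PI284702 (15.7% of all genes) and 4 in UC96US23 (20.0%), and lower genes 0 in PI284702 (15.0%) and 0 in UC96US23 (24.7%). Ls5g86540.2 and Ls6g7601.1 had an adjusted p under 0.01 in both cultivars with less than a doubling. The share of all genes under that p limit whatever the fold was not counted, so this is a description only.

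Ls5g86540.2 had 122 and 106 CPM in PI284702 at 0 h and 187, 185 and 181 at 4 h of cold, a difference of 0.70 (standard error 0.09, adjusted p = 1.03e-05 by limma). In UC96US23 it had 139, 142 and 127 at 0 h and 196, 225 and 188 at 4 h, a difference of 0.57 (standard error 0.08, adjusted p = 1.76e-05 by limma). Neither pair of groups overlapped. At 24 h and 7 d its differences were between -0.05 and 0.22 and none was called.

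Ls6g7601.1 had 25.4 and 24.4 CPM in PI284702 at 0 h and 44.5, 44.0 and 45.2 at 4 h, a difference of 0.83 (standard error 0.15, adjusted p = 0.000306 by limma). In UC96US23 it had 42.3, 40.5 and 35.1 at 0 h and 57.1, 68.8 and 53.6 at 4 h, a difference of 0.60 (standard error 0.13, adjusted p = 0.00133 by limma). All cold libraries at 4 h lay above all 0 h libraries of the same cultivar. Later it was at 0.50 (24 h) and 0.45 (7 d) in PI284702 and at 0.07 and 0.10 in UC96US23, none of them called.

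Of the 6 genes, 2 fell under prolonged cold in both cultivars. At 24 h, 2 of 6 genes were called lower in PI284702 and 2 of 6 in UC96US23, where 3.83% and 5.95% of all genes were called lower. At 7 d, 2 of 6 were again called lower in each, where 3.89% and 4.11% of all genes were. The same 2 genes, Ls6g17980.1 and Ls8g78661.1, made up all 4 of these counts. At 7 d the median difference of all genes was 0.15 in PI284702 and 0.09 in UC96US23. Median-centring the libraries turned the balance of all calls at 7 d in PI284702 from 1408 higher and 912 lower to 774 higher and 1516 lower, and in UC96US23 from 1164 and 963 to 783 and 1377, and both genes were still called lower. None was called higher by limma or by edgeR, where 5.9% and 6.23% of all genes were called higher at 24 h and 6.01% and 4.97% at 7 d in PI284702 and UC96US23. With an unadjusted limma p under 0.05, 1 gene was higher and 3 were lower in PI284702 at 24 h, where 24.5% of all genes were higher and 21.1% lower, and again 1 and 3 at 7 d (35.0% and 16.3%). In UC96US23, 1 gene was higher and 4 were lower at 24 h (25.1% and 28.3%) and again at 7 d (34.0% and 19.4%).

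Ls6g17980.1 had 211 and 210 CPM in PI284702 at 0 h. It had 243, 250 and 296 at 4 h of cold, 123, 39.9 and 44.2 at 24 h, and 20.47, 7.39 and 7.74 at 7 d. The level was thus highest at 4 h, lower at 24 h with replicate 1 apart from the others, and lowest at 7 d, with no overlap between the times. The difference from 0 h was -1.80 at 24 h (standard error 0.41, limma adjusted p = 0.00137) and -4.25 at 7 d (standard error 0.41, limma adjusted p = 3.51e-08). With only 2 libraries at 0 h, the 24 h call did not hold when either of them, or replicate 2 at 24 h, was left out, with adjusted p of 0.0148, 0.0151 and 0.0108 by limma and differences of -1.80, -1.79 and -1.50.

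In UC96US23, Ls6g17980.1 had 120, 119 and 117 CPM at 0 h and 198, 253 and 173 at 4 h. It then had 41.8, 46.6 and 41.4 at 24 h and 29.2, 13.4 and 10.4 at 7 d. The libraries at 4 h lay above all of those at 0 h, but the difference of 0.79 was not called (standard error 0.37, adjusted p = 0.0998 by limma). Over 14 fits by limma or edgeR its adjusted p ran from 0.00438 to 0.266, and 0 of them called it. The difference was -1.45 after 24 h (standard error 0.37, limma adjusted p = 0.00245) and -2.85 after 7 d (standard error 0.37, limma adjusted p = 1.41e-06).

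Ls8g78661.1 had 18.2 and 13.5 CPM in PI284702 at 0 h. It had 17.6, 19.4 and 19.5 at 4 h, 6.52, 1.04 and 2.32 at 24 h, and 1.02, 1.08 and 0.573 at 7 d, where the libraries held 21, 21 and 12 reads. The 4 h libraries overlapped those of 0 h, and those of 24 h and 7 d lay below. The difference was -2.37 at 24 h (standard error 0.40, limma adjusted p = 6.78e-05) and -3.56 at 7 d (standard error 0.40, limma adjusted p = 3.17e-07).

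In UC96US23, Ls8g78661.1 had 8.78, 9.72 and 11.7 CPM at 0 h and 19.9, 24.0 and 17.7 at 4 h. The 4 h libraries all lay above those of 0 h, a difference of 0.99 that was not called (standard error 0.36, adjusted p = 0.0355 by limma). Over 14 fits by limma or edgeR this difference ran from 0.88 to 1.1 and its adjusted p from 0.00366 to 0.111. Of these fits, 0 called it. The gene had 4.76, 3.27 and 1.90 at 24 h, a difference of -1.54 (standard error 0.36, limma adjusted p = 0.00129), and 2.08, 1.205 and 1.04 at 7 d, a difference of -2.47 (standard error 0.36, adjusted p = 7.16e-06 by limma). Without replicate 3 at 24 h the difference there was -1.24 and the call was lost (adjusted p = 0.0134 by limma).

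Ls7g27121.1 had 7.95 and 5.76 CPM in PI284702 at 0 h and 3.51, 3.75 and 1.29 at 7 d of cold, a difference of -1.22 (standard error 0.40, adjusted p = 0.0171 by limma). In UC96US23 it had 6.22, 6.26 and 4.75 at 0 h and 2.70, 2.30 and 3.44 at 7 d, a difference of -0.92 (standard error 0.36, adjusted p = 0.0406 by limma). All of these 7 d libraries lay below all of their 0 h libraries, and neither difference was called. In PI284702 the gene was called lower at 7 d by edgeR (-1.45) and with median-centred libraries (-1.43). At 4 h and 24 h its differences were between -0.84 and 0.11 and none was called, and only the 4 h libraries of PI284702 (4.90, 4.33 and 4.55) and the 24 h libraries of UC96US23 (4.67, 1.92 and 2.79) all lay below those of 0 h.

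Ls4g139721.1 had 3.24 and 2.95 CPM in PI284702 at 0 h and 1.54, 1.19 and 1.30 at 24 h of cold, a difference of -0.97 that was not called (standard error 0.30, adjusted p = 0.014 by limma) but was with median-centred libraries (-1.07). In UC96US23 it was near the floor of the counts, with 26, 16 and 8 reads at 0 h and 8, 2 and 3 reads at 24 h, a difference of -0.85 (standard error 0.27, adjusted p = 0.0125 by limma). With 3 reads or fewer in 2 of these libraries, the size of that difference depends on the pseudocount, from -0.34 with 2 to -1.53 with 0.1. The latter was called, as were the edgeR value (-1.88) and the difference without UC96US23 replicate 3 at 0 h (-1.10). At 0 h the gene was lower in UC96US23 (1.30, 0.759 and 0.384 CPM) than in PI284702, a difference of -1.51 (standard error 0.30, adjusted p = 0.000573 by limma). It was the only 1 of the 6 genes called between the warm-grown cultivars, where 9.9% of all genes were called in either direction, and it was not called with a pseudocount of 2 or without PI284702 replicate 1 at 0 h.

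**Figure D3:**
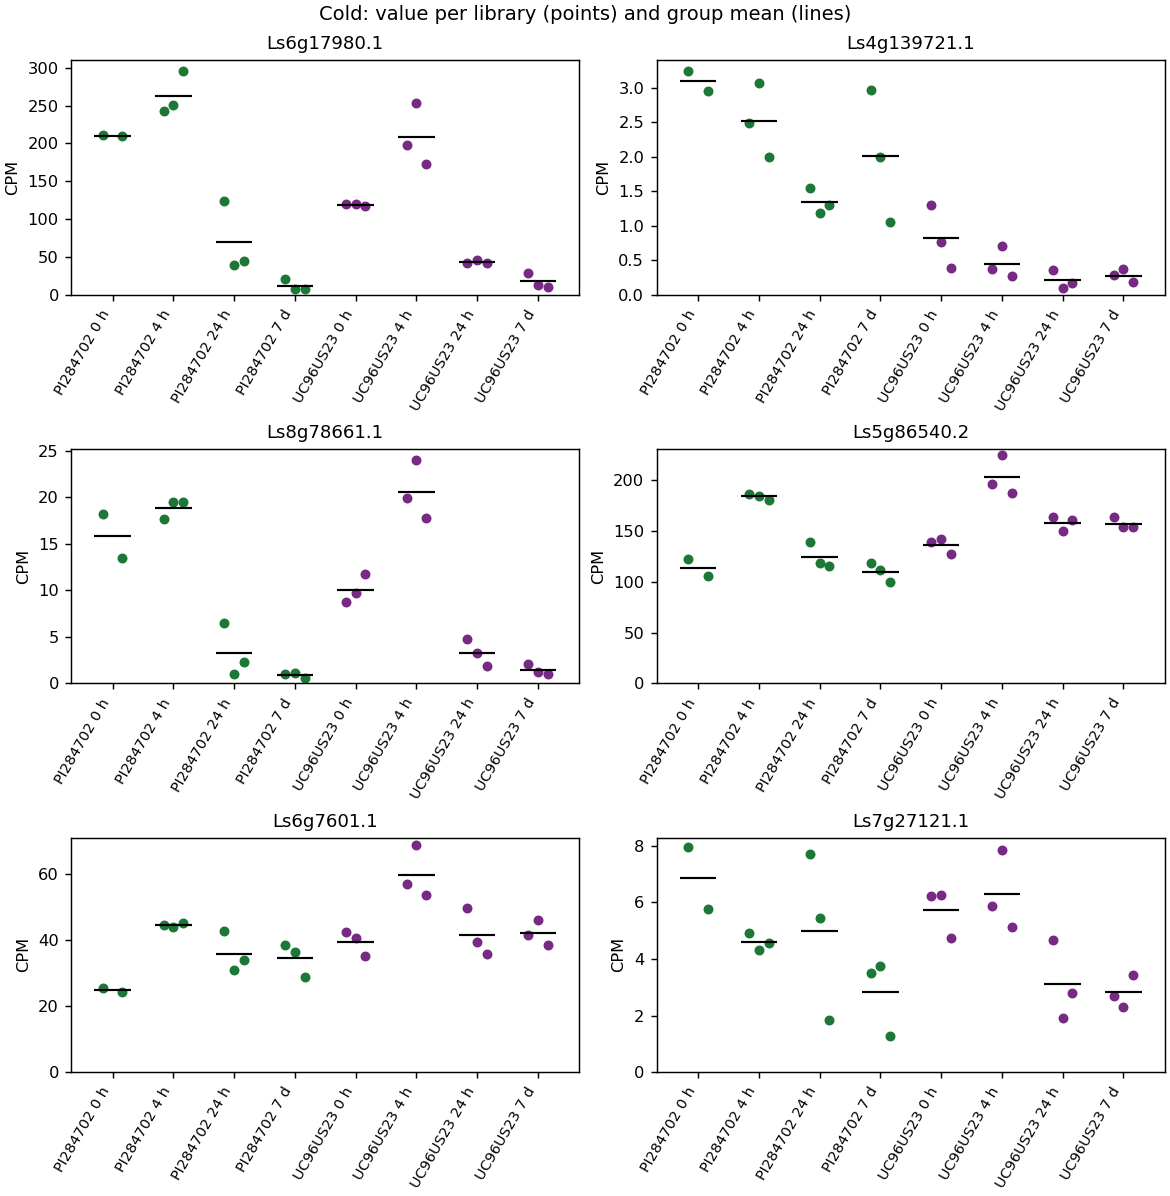
CPM of the 6 genes in the 23 libraries of PI284702 (green) and UC96US23 (purple), with 1 panel per gene, points for the libraries of a group, a line at the group mean, and a vertical axis that starts at 0 and differs between panels. Ls6g17980.1 and Ls8g78661.1 are highest at 4 h and lowest at 7 d in both cultivars, and Ls5g86540.2 and Ls6g7601.1 peak at 4 h.

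An interaction term, the UC96US23 difference minus the PI284702 difference, tested whether the cultivars responded unequally to cold. None of the 6 genes was called at any of the 3 times by limma or by edgeR, where 0.137%, 0.661% and 0.674% of all genes were called in either direction. With an unadjusted p under 0.05 there were 0 genes at 4 h, 1 at 24 h (Ls6g7601.1, -0.43) and 1 at 7 d (Ls6g17980.1), where 16.5%, 16.1% and 15.9% of all genes were. That of Ls6g17980.1 was the largest interaction of the 6 genes at any time, at 1.39 (standard error 0.55, adjusted p = 0.196 by limma), so that a smaller fall in UC96US23 was not resolved from the spread between libraries.

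**Figure D4:**
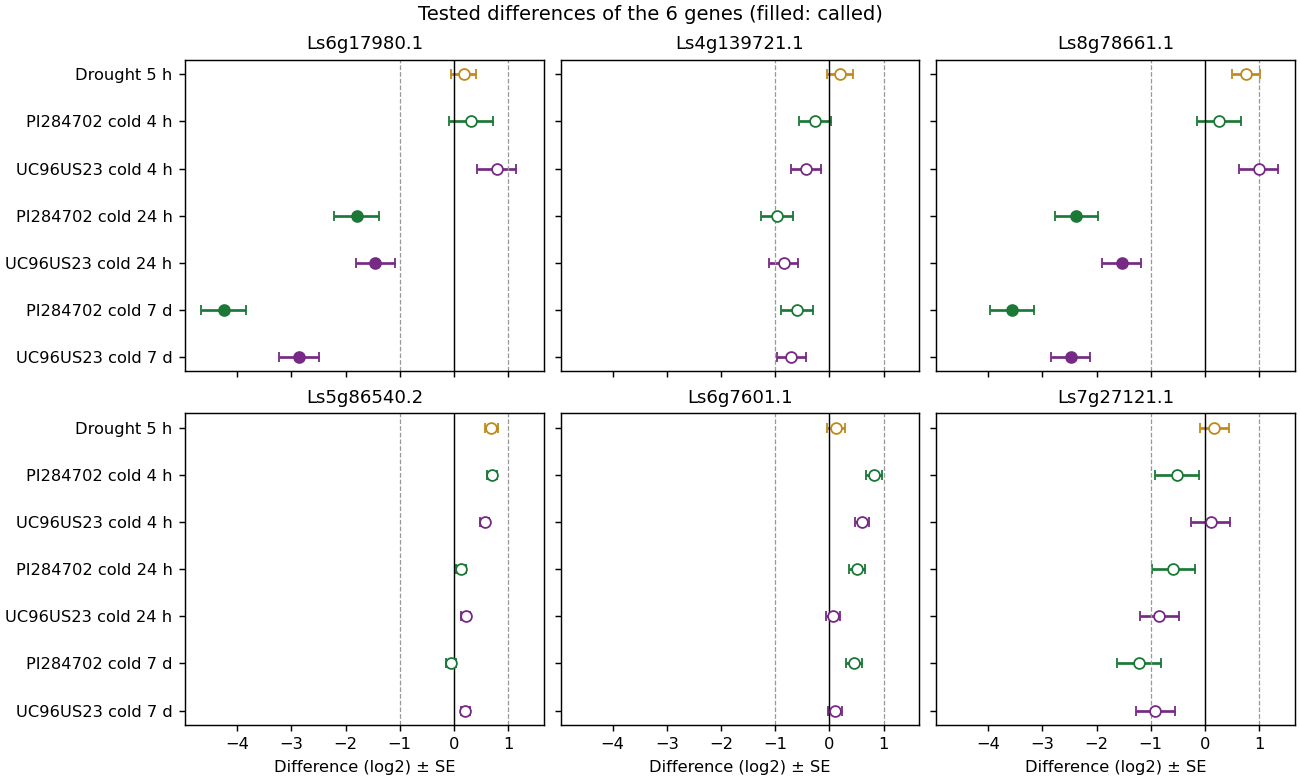
Log2 differences with their standard errors by limma for the 6 genes, at 5 h of drought against the Salinas control (ochre) and at each time of cold against 0 h in PI284702 (green) and UC96US23 (purple), with filled points for called differences and dashed lines at -1 and 1. The filled points are those of Ls6g17980.1 and Ls8g78661.1 at 24 h and 7 d of cold.

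The 74 genes raised at 5 h of both salt and heat and also later were given the same comparisons. At 5 h of drought, 8 of 74 were called higher, beside 0 of the 6 genes and 0.542% of all genes. The median difference of the 74 was 0.34, beside 0.19 for the 6 genes. The 74 were chosen against the same 3 control libraries, and a low value there raises these differences too. The 11 genes with a difference of at least 1 at 5 h of all 3 stresses were all among the 74. Of all genes, 0.743% had such a difference at 5 h of drought. In the cold table, 72 of the 74 were tested. At 4 h of cold, 11 of 72 were called higher and 4 lower in PI284702, where 3.41% and 0.704% of all genes were. In UC96US23, 11 and 5 were, where 4.3% and 2.33% of all genes were. The medians at 4 h were -0.01 and 0.24, beside 0.29 and 0.58 for the 6 genes. At 24 h, 15 were called higher and 6 lower in PI284702, where 5.9% and 3.83% of all genes were, and 16 and 9 in UC96US23, where 6.23% and 5.95% were. The medians at 24 h were 0.16 and 0.19, beside -0.78 and -0.85 for the 6 genes. At 7 d, 4 were called higher and 15 lower in PI284702, where 6.01% and 3.89% of all genes were, and 7 and 8 in UC96US23, where 4.97% and 4.11% were. The medians at 7 d were -0.35 and -0.07, beside -0.91 and -0.81. With 6 genes on the other side, these counts and medians are a description, and the difference between the sets was not tested.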

How the data were processed

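The authors aligned reads with STAR 2.5.2 to the lettuce genome version 8 and counted them per gene with featureCounts. For Salinas they deposited a signal per gene, counts per 1000000 reads of a scaled library size, whose columns sum to 815104 to 1273638. For the cold table they deposited CPM, and each column sums to 1000000. Of the values above 0 in each table, 100% were whole reads within 0.1 read, and these recovered reads gave the depths and the values for edgeR. A single read was 0.0300 to 0.0619 scaled CPM in Salinas and 0.0358 to 0.0569 CPM in the cold table. Precision from depth covers counting error only. A count of 3 reads was taken as the floor in describing low values, and no value was removed for it.

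The rule, the genes and the tests were chosen with earlier results of these data known. The design named CPM for both tables, and the log-scale test was kept for the scaled values. A value of 0.5 or more in 2 or more libraries was required, which left 23231 of 23292 Salinas genes and 23443 of 23933 genes of the cold table. In R 4.3.3, limma 3.58.1 was used on log2(value + 0.5) with a trended empirical Bayes step, with all libraries of a table in one fit, and p-values were adjusted by the Benjamini-Hochberg method within each comparison. The thresholds and filter follow the study's methods. Every gene that met the rule is named, and with them the nearest gene outside each limit. Lists that need product names were not run, since the identifiers were not paired with names.

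Each fit was repeated with a pseudocount of 0.1 or 2, without the filter, with median-centred libraries, Salinas libraries scaled to 1000000, only the libraries compared, a replicate block, TMM and the quasi-likelihood test of edgeR 4.0.16 on recovered reads, 48 h of drought in place of 24 h, and leaving out each library. Tables were made with pandas 2.3.3 and numpy 2.4.6 and figures with matplotlib 3.10.9, under Python 3.11.15. The fits were tested on simulated counts with 200 genes changed 3-fold or 4-fold.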

Additional observations from a re-analysis of the deposited data

How the results depend on the processing

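The number of genes meeting the rule was 2 with a pseudocount of 2, 7 with 0.1, 3 with median-centred libraries, 5 with libraries scaled to 1000000, 8 with edgeR fold changes, and 3 to 7 when a Salinas library was left out. The methods describe randomized blocks for the Salinas plants, and take the cold data from a separate data set. The labels do not say whether replicate numbers stand for blocks. Deviations of same-numbered libraries correlated at -0.184 to 0.141 in the 27 pairs checked, and the 4 above 0.1 were all of PI284702. Only 1 of 15 libraries, none of them of PI284702, correlated best with its own number. Such weak correlations showed no clear pairing and cannot exclude it. With the replicate block 2 genes were still called lower at 24 h and at 7 d of cold in each cultivar and 0 were called at 5 h of drought, and it changed no call of the 6 genes.

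Leaving out 1 library gave 0 to 1 genes higher for drought 5 h against 24 h, 1 to 2 lower at 24 h of cold in PI284702 and 1 to 3 in UC96US23, and 0 to 1 called between the warm-grown cultivars, where a pseudocount of 2 gave 0. Differences that changed sign were all uncalled. Without 1 library, Ls6g7601.1 was at -0.0599 to 0.274 at 5 h of drought. For drought 5 h against 24 h, Ls4g139721.1 was at -0.297 to 0.0137, Ls5g86540.2 at -0.159 to 0.0319, Ls6g7601.1 at -0.317 to 0.0164 and Ls6g17980.1 at -0.231 to 0.293, and the last was at 0.0311 against 48 h. Under cold, Ls5g86540.2 was at -0.153 to 0.055 at 7 d in PI284702, and in UC96US23 Ls7g27121.1 was at -0.0503 to 0.233 at 4 h and Ls6g7601.1 at -0.0625 to 0.172 at 24 h. At 7 d there, Ls6g7601.1 was at -0.0446 with median-centred libraries and at -0.0358 by edgeR. The cause was not tested.

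Over all genes, edgeR called 997 higher and 1514 lower at 7 d in PI284702 and 1002 and 1552 in UC96US23, where limma called 1408 and 912, and 1164 and 963. For the interaction with cultivar, edgeR called 7 and 4 at 4 h, 41 and 36 at 24 h and 56 and 50 at 7 d, and limma 9 and 23, 65 and 90, and 62 and 96. For drought 5 h against 24 h, edgeR called 50 and 37 and limma 68 and 26, and a fit on those libraries alone 4 and 1. A pseudocount of 2 lowered the calls between the warm-grown cultivars from 1232 higher and 1089 lower to 574 and 522, and those lower at 5 h of drought from 55 to 18.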
